A study of Mus musculus with 10 samples.

Results

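Cholesterol synthesis and sterol regulation were followed through 32 genes in hematopoietic stem and progenitor cells (HSPCs), the bone marrow cells from which blood is renewed. The genes were taken by symbol, among the 55573 genes of the count files. They comprise 18 enzymes of the pathway, 5 genes of sterol sensing, 5 of the liver X receptors and sterol efflux, and 4 of sterol transport and storage. Not every enzyme of the pathway is analysed here. The EGF group was 5 libraries from C57BL/6 mice that received EGF (epidermal growth factor, which binds the receptor EGFR) under the skin, and the Saline group was 5 libraries from C57BL/6 mice that received saline by the same route. All mice of both groups had received 500 cGy of total body radiation, the cells were taken 6 weeks later, and the labels give an age of 16 weeks. The labels do not state the EGF dose or the sort gate, or whether each library came from its own mouse. The p-values therefore measure how far libraries spread, which may be technical.

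Cells make cholesterol from acetyl-CoA through mevalonate, squalene and lanosterol. When membranes hold little cholesterol, the escort protein SCAP carries the SREBP transcription factors (genes Srebf1 and Srebf2) to the Golgi, where they are cut and released to switch on the enzymes. When sterols are plentiful, INSIG proteins hold SCAP back in the endoplasmic reticulum, and oxysterols activate the liver X receptors (Nr1h2 and Nr1h3), which switch on export by ABCA1 and ABCG1 and, through MYLIP, removal of lipoprotein receptors. In the marrow, export through the ABC transporters is known for restraining the proliferation of HSPCs.

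Total counts ranged from 6805106 to 8107909 in the EGF libraries and from 7582421 to 8370820 in the Saline libraries. EGF replicate 5 stood apart: 12731 genes had a count in it, against 18734 to 20046 in the other 4 EGF libraries and 19239 to 19942 in the Saline libraries. All 10 stem and progenitor markers that were examined (Kit, Cd34, Flt3 and Meis1 among them) were measured, with a summed level of 1820 to 2020 CPM (counts scaled to the TMM-adjusted size of each library) in EGF libraries and 1590 to 1840 CPM in Saline libraries. Markers of B and plasma cells summed to 661 to 3340 CPM in EGF libraries, lowest in replicate 5, and 2400 to 6440 CPM in Saline libraries. Of the 7 genes in that list 5 were tested, 4 of them with a log2 fold change below 0 with and without EGF replicate 5, and none was at 0 in all libraries. Neutrophil markers summed to 516 CPM in EGF replicate 5, 2.43 to 92.3 CPM in the other EGF libraries and 7.23 to 386 CPM in Saline libraries. The part of these cells in the values of the sterol genes was not tested. In bulk RNA, fewer cells that express a gene and less RNA of it per cell cannot be told apart.

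Promoter sequence was not used to choose the genes. Of 26 genes with a RefSeq promoter window (GRCm38.p6), 21 (80.8%) held the letters CCAAT, the box bound by the factor NF-Y, on either strand within 250 bases before the start. The share among all 27025 genes with a window was 37.5%. Among the 15 enzymes searched, 14 held it. For every motif, a gene counted if any of its windows matched. The 26 genes had 35 windows, against 32851 for all 27025 genes. Gene type and number of windows were not matched between them. The sterol regulatory element core, searched as TCACNCCAC on both strands, was found in Hmgcs1 alone of the 26, and in 1.22% of all genes. The E-box CACGTG was found in 6 of the 26, Hsd17b7, Sc5d, Dhcr7, Insig1, Scap and Abca1, and in 6.86% of all genes. The direct repeat 4 of the liver X receptors was found in none of the 26 and in 0.0148% of all genes. Fdps, Fdft1, Sqle, Abcg1, Stard4 and Npc1 were not searched. No 2 of the matches overlapped, and a match is a run of letters, not a measured binding site. No other letters were allowed, so a gene without a match may still hold a variant of the site.

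The 180 bases before the start are shown for 5 genes: Hmgcs1, which holds the sterol element, Mvd, Ebp and Sc5d, enzymes with the lowest fold changes without EGF replicate 5, and Abca1, the exporter with the highest. Capitals mark CCAAT or its complement ATTGG, the sterol element, and CACGTG. Hmgcs1 is read at chr13:119690171-119690350 on the plus strand, Mvd at chr8:122443423-122443602, Ebp at chrX:8193513-8193692, Sc5d at chr9:42264301-42264480 and Abca1 at chr4:53159896-53160075, all on the minus strand of GRCm38.
Hmgcs1: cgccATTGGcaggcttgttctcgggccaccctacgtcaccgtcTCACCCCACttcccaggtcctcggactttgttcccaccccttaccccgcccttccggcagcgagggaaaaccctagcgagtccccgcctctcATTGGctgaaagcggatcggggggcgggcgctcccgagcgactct
Mvd: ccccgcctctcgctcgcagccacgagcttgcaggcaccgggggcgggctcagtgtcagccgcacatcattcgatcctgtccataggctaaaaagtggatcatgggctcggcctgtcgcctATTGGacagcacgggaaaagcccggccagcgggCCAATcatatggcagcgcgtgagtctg
Ebp: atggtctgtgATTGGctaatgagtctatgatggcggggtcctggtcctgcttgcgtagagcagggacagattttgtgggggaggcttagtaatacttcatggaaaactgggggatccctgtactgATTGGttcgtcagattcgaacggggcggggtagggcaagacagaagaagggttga
Sc5d: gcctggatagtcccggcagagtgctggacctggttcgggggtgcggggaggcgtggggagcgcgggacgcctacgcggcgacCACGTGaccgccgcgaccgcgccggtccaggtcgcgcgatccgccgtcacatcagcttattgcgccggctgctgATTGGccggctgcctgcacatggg
Abca1: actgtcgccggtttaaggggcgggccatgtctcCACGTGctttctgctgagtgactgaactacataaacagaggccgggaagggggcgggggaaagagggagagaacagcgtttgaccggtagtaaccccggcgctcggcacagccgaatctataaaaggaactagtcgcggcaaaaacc

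No gene of the 32 differed between EGF and Saline by the quasi-likelihood test of edgeR at a threshold of 0.05, with Benjamini-Hochberg adjustment over all genes tested. Of the 32 genes, 30 passed the filter on low counts, and their adjusted p lay between 0.552 and 0.906. The same test called 1 gene of 12874 higher (0.00777%) and 0 lower (0%). Before adjustment, 2 sterol genes had p under 0.05 and were higher (Mylip and Nr1h2) and 2 were lower (Ebp and Soat1), where all genes gave 6.14% higher and 2.73% lower. The EGF and Saline libraries did not overlap for Ebp and Msmo1, both lower with EGF, a pattern shown by 1.65% of all genes. No sterol gene was higher in all EGF libraries, against 1.62% of all genes. DESeq2 also called 0 of the 32 with all 10 libraries. It called 12 genes higher (0.0451% of the 26621 with a p-value) and 15 lower (0.0563%).

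Many values of the full comparison turned on EGF replicate 5. It had 0 counts for 6 of the genes, Mvd, Idi1, Fdps, Tm7sf2, Hsd17b7 and Nr1h3, and no other library had 0 counts for any of the 32. A count of 0 allows up to 3 counts, 0.42 CPM in that library, for counting error only. With all libraries 23 of 30 tested genes had a log2 fold change below 0 and the median was -0.26, where 51.5% of all genes lay below 0 with a median of -0.012. Without EGF replicate 5 the count was 19 of 30 and the median -0.06, against 50% and a median of 0 over all 13104 genes tested. In that fit edgeR called none of the 30 sterol genes tested (adjusted p 0.163 to 0.994). Over all genes it called 4 higher (0.0305%) and 4 lower (0.0305%).

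**Figure D1:**
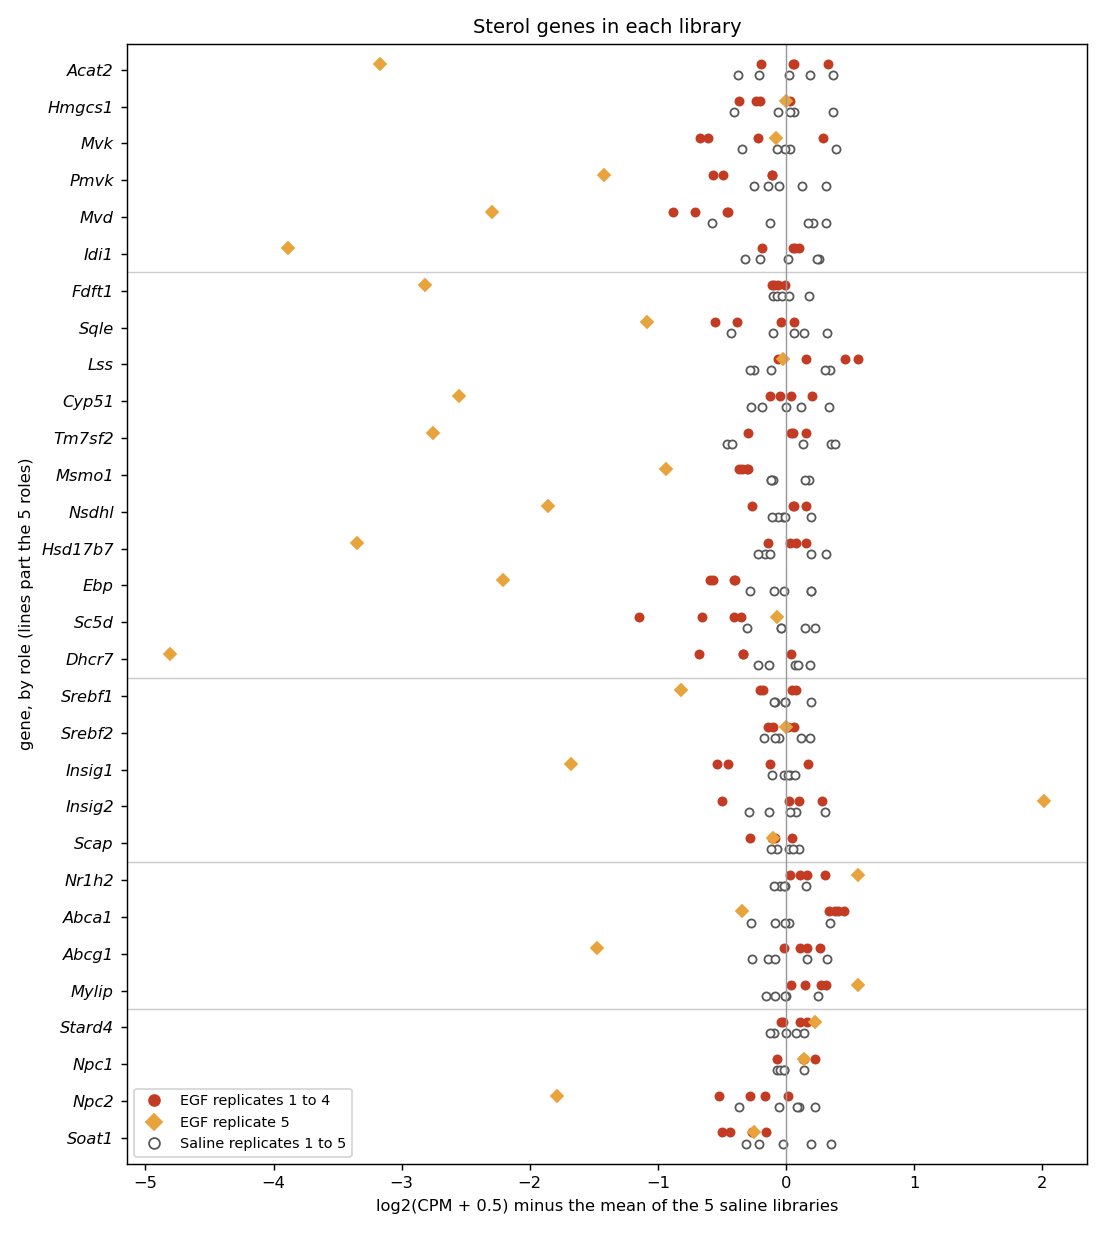
Level of each of the 30 tested genes in every library as log2(CPM + 0.5) minus the mean of the 5 Saline libraries, with EGF replicates 1 to 4 as filled circles, EGF replicate 5 as a diamond and Saline libraries as open circles. The diamond lies far below the other libraries for enzymes such as Dhcr7 and Idi1 and far above them for Insig2, while the filled circles of Ebp and Msmo1 lie below all open circles.

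Early pathway enzymes, which build the isoprenoid units, were lower on average with EGF, within the spread of the libraries. All 6 tested had a log2 fold change below 0 with all libraries (median -0.29), and 5 of 6 without EGF replicate 5 (median -0.25). Their summed level was 63.1, 60.8, 51.9, 51.6 and 40.2 CPM in EGF replicates 1 to 5, against 56.7, 63.7, 66.4, 72.9 and 65.7 CPM in Saline replicates 1 to 5. The groups overlapped, since EGF replicates 1 and 2 lay within the Saline range and replicates 3, 4 and 5 below it.

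Mvd, the decarboxylase that makes isopentenyl diphosphate, had 1, 1.29, 1.28, 0.826 and 0 CPM in EGF libraries, against 1.14, 2.33, 2.26, 1.75 and 2.54 CPM in Saline libraries. EGF replicates 2 and 3 lay above the lowest Saline library, so the groups overlapped. Its log2 fold change was -1.17 (SE 0.63) with all libraries and -0.86 (SE 0.36) without EGF replicate 5, with an edgeR adjusted p of 0.565 and 0.273. These levels rest on 0 to 10 counts in EGF libraries and 9 to 19 counts in Saline libraries. Pmvk, the phosphomevalonate kinase of the step before, had 9.41, 9.40, 7.13, 6.72 and 3.50 CPM in EGF libraries, against 8.5, 9.21, 12.8, 9.81 and 11.2 CPM in Saline libraries. EGF replicates 3, 4 and 5 lay below all Saline libraries and the other two within them (log2 fold change -0.51, SE 0.29, and -0.34, SE 0.18, without replicate 5). Hmgcs1, the cytosolic HMG-CoA synthase whose promoter is shown above, had 31.4, 26.7, 23.8, 26.1 and 30.7 CPM in EGF libraries, against 23.1, 29.4, 32.2, 39.8 and 31.5 CPM in Saline libraries. All EGF values lay inside the Saline range, and the log2 fold change was -0.17 (95% interval -0.52 to 0.18).

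Of the other early enzymes, Mvk, mevalonate kinase, averaged 5.04 ± 1.55 CPM in EGF libraries and 6.01 ± 1.21 CPM in Saline libraries (SD, n = 5 each). Acat2, the cytosolic thiolase, had 6.72 to 9.91 CPM in EGF replicates 1 to 4 and 0.42 CPM in replicate 5, against 5.88 to 10.2 CPM in Saline libraries, and its log2 fold change was -0.25 with and 0.05 without that library. Idi1, the isomerase, had 6.02 to 7.47 CPM in EGF replicates 1 to 4 and 0 in replicate 5, against 5.45 to 8.38 CPM in Saline libraries. Fdps, farnesyl diphosphate synthase, had 0 to 4 counts in EGF libraries and 3 to 7 in Saline libraries. It was under the count filter of the edgeR test, and DESeq2 gave a log2 fold change of -0.67 (adjusted p = 0.811). Near copies bear on some of these counts. Of the longest transcript of Fdps, 91.4% matched transcripts of 6 other annotated genes at 95% identity or more over at least 75 bases, 5 of them processed pseudogenes. The share was 65.6% for Acat2, matched by Acat3 and Tcp1, and 33.3% for Idi1. How reads with several matches were counted is not given in the sources used here, so the counts of Fdps, Acat2 and Idi1 are uncertain. Genes on the opposite strand covered 12.1% of the exons of Hmgcs1, 13.2% of those of Scap and 5.31% of those of Npc1, and Vps51 covered 12.1% of those of Tm7sf2 on the same strand, so their counts may be mixed too.

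Among the enzymes from squalene to cholesterol, Ebp, Msmo1 and Sc5d had the smallest p, all with lower means in EGF libraries than in Saline libraries. Of the 11 tested, 10 had a log2 fold change below 0 with all libraries (median -0.37), and 7 did without EGF replicate 5 (median -0.075). The summed level was 140.6, 135.4, 123.8, 127.8 and 52.4 CPM in EGF replicates 1 to 5, against 164, 138.9, 133.2, 149.7 and 161.2 CPM in Saline replicates 1 to 5. EGF replicates 1 and 2 lay within the Saline range and the other three below it. The mean was 116 ± 36.1 CPM (SD, n = 5) in EGF libraries, or 131.9 ± 7.51 CPM (SD, n = 4) without replicate 5, and 149.4 ± 13.4 CPM (SD, n = 5) in Saline libraries.

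Ebp, the sterol isomerase that moves the double bond in the sterol ring, had 12.2, 13.9, 14.0, 12.4 and 3.64 CPM in EGF libraries, against 21.4, 17.4, 15.2, 18.4 and 21.4 CPM in Saline libraries. The highest EGF library lay below the lowest Saline library. Its log2 fold change was -0.74 (SE 0.32) with all libraries and -0.52 (SE 0.14, 95% interval -0.81 to -0.22) without EGF replicate 5. The edgeR adjusted p was 0.552 and 0.163, and DESeq2 without that library, a setting added after the data were seen, gave 0.0411. DESeq2 without replicate 5 called 136 genes lower, 0.507% of the 26826 with a p-value, and 174 higher (0.649%). Some of the 26826, Mvd among them, got no adjusted p, so the shares of genes it could call are larger. No transcript of another gene matched Ebp, and it lies on the X chromosome from 8185329 to 8193512 (GRCm38, minus strand).

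Sc5d, the desaturase of a late step, had 10.8, 8.63, 10.4, 6.02 and 13.2 CPM in EGF libraries, against 11.2, 13.5, 16.4, 15.5 and 13.5 CPM in Saline libraries. EGF replicates 1 to 4 lay below all Saline libraries, and replicate 5 lay within them. The log2 fold change was -0.51 (SE 0.24) with all libraries and -0.65 (SE 0.19) without replicate 5. For Sc5d the edgeR adjusted p was 0.552 and 0.176, and DESeq2 called it without replicate 5 (adjusted p = 0.0499). Leaving out replicate 5 moved the fold change of Sc5d further from 0. Msmo1, a methylsterol monooxygenase that acts in the removal of methyl groups, had 9.15, 9.66, 9.56, 9.32 and 6.02 CPM in EGF libraries. In Saline libraries it had 13.6, 11, 11.1, 13.3 and 11 CPM. The groups did not overlap, and replicates 1 to 4 lay close together, at 9.42 ± 0.229 CPM (SD, n = 4). Its log2 fold change was -0.45 (SE 0.21) and -0.35 (SE 0.14) without replicate 5, with an edgeR adjusted p of 0.552 and 0.261.

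Without EGF replicate 5, Ebp, Msmo1 and Sc5d were the 3 sterol genes whose groups did not overlap, all lower with EGF, a pattern shown by 2.36% of all 13104 genes. None was higher in all 4 EGF libraries, against 2.66% of all genes. Before adjustment, 5 sterol genes were lower at p under 0.05 (Ebp, Sc5d, Soat1, Msmo1 and Mvd), where all genes gave 7.39%, and 1 higher (Abca1), where all genes gave 8.38%. Without EGF replicates 3, 4 and 5 the log2 fold change was -0.53 for Ebp, -0.53 for Sc5d and -0.35 for Msmo1, with an edgeR adjusted p of 0.615 to 0.792. That fit held EGF replicates 1 and 2 only.

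Several other enzymes of these steps were far below Saline in EGF replicate 5 and nearer to it in the other EGF libraries. Dhcr7, which completes cholesterol in one branch, had 10.7 to 17.9 CPM in EGF replicates 1 to 4 and 0.14 CPM (1 count) in replicate 5, against 14.9 to 19.9 CPM in Saline libraries. Of replicates 1 to 4, only replicate 1 of Dhcr7 lay within the Saline range. Cyp51, the lanosterol demethylase, had 18.7 to 23.6 CPM in EGF replicates 1 to 4 and 3.08 CPM in replicate 5, against 16.9 to 25.9 CPM in Saline libraries. Its log2 fold change was -0.26 with replicate 5 and 0.008 without it (95% interval -0.29 to 0.31). Fdft1, squalene synthase, had 13.7 to 14.8 CPM in EGF replicates 1 to 4 and 1.68 CPM in replicate 5, against 13.8 to 16.9 CPM in Saline libraries. Ctsb overlaps it on the other strand, and 54.7% of its longest transcript matched other genes.

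Nsdhl, a sterol dehydrogenase, and Hsd17b7, a reductase of the same complex, had log2 fold changes of 0.006 and 0.025 without replicate 5, and -0.23 and -0.29 with it. Tm7sf2, a sterol reductase, stood at -0.37 with and -0.05 without that library. Sqle, the squalene epoxidase that is a control point of the pathway, averaged 15.8 ± 4.82 CPM in EGF libraries and 20.5 ± 3.96 CPM in Saline libraries (SD, n = 5 each), with a log2 fold change of -0.38 (SE 0.24) and -0.23 without replicate 5. Lss, lanosterol synthase, was the one enzyme above 0 with all libraries, at 15.7 ± 3.21 CPM in EGF libraries and 13.4 ± 2.97 CPM in Saline libraries (log2 fold change 0.23, SE 0.22). These differences were within the spread of the libraries.

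The number of enzymes that lay below all Saline libraries differed from one EGF library to the next. Of 17 tested enzymes it was 4, 4, 7, 9 and 13 in EGF replicates 1 to 5, or 23.5%, 23.5%, 41.2%, 52.9% and 76.5%. Among all genes tested the share below all Saline libraries was 16.5%, 14.9%, 24.9%, 26.8% and 50.7% in the same libraries. Their share above all Saline libraries was 17.1%, 16.3%, 24.1%, 26.7% and 36.3%. More genes thus lay outside the Saline range on both sides in EGF replicates 3, 4 and 5. Of the enzymes, 1, 0, 0, 1 and 0 lay above all Saline libraries. The share of counts from the nuclear RNA Malat1 was 0.521%, 0.387%, 0.908%, 0.905% and 1.62% in EGF replicates 1 to 5, against 0.336% to 0.444% in Saline libraries. The 3 libraries with the highest Malat1 share thus had the most enzymes below Saline. Mitochondrial genes took 8.59%, 8.38%, 9.43%, 10.04% and 7.73% of counts in EGF replicates 1 to 5, against 5.89% to 7.43% in Saline libraries, so that the groups did not overlap. The part of the Malat1 and mitochondrial shares in the enzyme values was not tested. Over the 18 enzymes together, the median log2 fold change of those tested was -0.35 with all libraries, -0.21 without EGF replicate 5 and -0.05 without EGF replicates 3, 4 and 5.

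**Figure D2:**
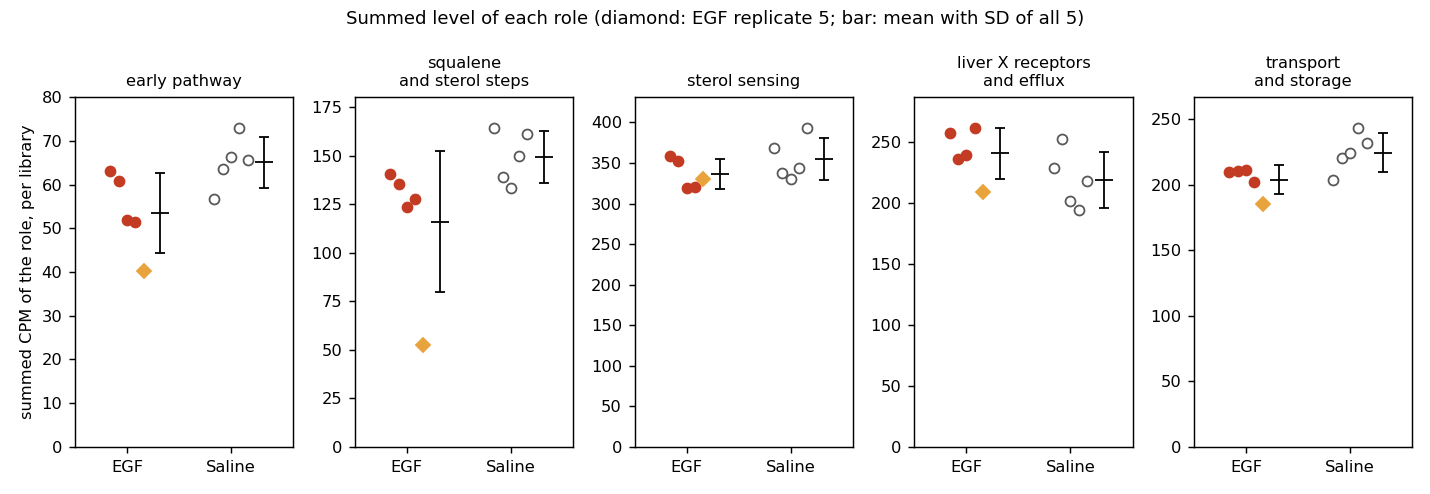
Summed CPM of the genes of each role in every library, EGF left and Saline right, with the mean and SD of all 5 beside the points. In the squalene and sterol steps EGF replicate 5, the diamond, lies at 52.4 CPM against 123.8 to 140.6 CPM in the other EGF libraries, while the sums of sterol sensing overlap between the groups.

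No sterol sensing gene differed between the groups by the edgeR test. Srebf2, the transcription factor that drives the enzymes, averaged 194 ± 11.2 CPM in EGF libraries and 199 ± 20.6 CPM in Saline libraries (SD, n = 5 each). Its log2 fold change of -0.04 (SE 0.09) had a 95% interval from -0.225 to 0.151, the narrowest of the 30 genes, and the groups overlapped. EGF replicate 5 lay at 198 CPM, within the other libraries. Scap, the escort protein, had 64.0, 71.1, 65.1, 56.6 and 64.2 CPM in EGF libraries, against 65.7, 63.7, 74.2, 70.0 and 71.6 CPM in Saline libraries. The groups overlapped (log2 fold change -0.11, SE 0.09). Srebf1, the member that also drives fatty acid synthesis, averaged 49.5 ± 11.1 CPM in EGF libraries and 56.4 ± 4.87 CPM in Saline libraries (SD, n = 5 each), with EGF replicate 5 lowest at 31.7 CPM.

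The INSIG genes, whose proteins retain SCAP, lay on opposite sides of Saline in EGF replicate 5. Insig1, itself a target of SREBP, had 21.1, 16.7, 15.7, 26.0 and 6.86 CPM in EGF libraries, against 23.6, 22.8, 21.4, 23.3 and 24.3 CPM in Saline libraries. The Saline libraries lay close together and EGF replicate 4 lay above all of them, with the other 4 EGF libraries below. Insig2 had 7.65, 7.21, 4.85, 8.73 and 30.1 CPM in EGF libraries, against 8.88, 7.52, 5.70, 7.26 and 6.41 CPM in Saline libraries. Replicate 5, with 215 counts, lay far above all others, EGF replicate 3 lay below all Saline libraries, and the other three lay within the Saline range. The log2 fold change of Insig2 was 0.71 (SE 0.47) with replicate 5 and -0.005 (SE 0.21) without it, and that of Insig1 was -0.42 (SE 0.28) and -0.21 (SE 0.14). The adjusted p by edgeR was 0.614 for Insig2 and 0.629 for Insig1.

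Of the 5 liver X receptor and efflux genes, Nr1h2, Mylip and Abca1 had higher means in EGF libraries than in Saline libraries, Abcg1 and Nr1h3 had lower ones, and none passed the edgeR or DESeq2 test with all libraries. Of the 4 tested by edgeR, 3 had a log2 fold change above 0 with all libraries (median 0.26), and all 4 did without EGF replicate 5 (median 0.18). Nr1h2, the receptor LXR beta, had 70.3, 64.0, 67.5, 77.6 and 92.5 CPM in EGF libraries, against 62.4, 60.7, 58.7, 61.8 and 69.7 CPM in Saline libraries. EGF replicates 1, 4 and 5 lay above all Saline libraries (log2 fold change 0.25, SE 0.11, edgeR adjusted p = 0.552). Without replicate 5, the highest library, the log2 fold change of Nr1h2 was 0.16 (SE 0.08, edgeR adjusted p = 0.355). Mylip, a ubiquitin ligase of lipoprotein receptors, had 47.5, 44.0, 51.9, 53.3 and 63.3 CPM in EGF libraries, against 42.9, 51.0, 38.3, 40.2 and 42.5 CPM in Saline libraries. Saline replicate 2 lay above EGF replicates 1 and 2, so the groups overlapped (log2 fold change 0.28, SE 0.13, edgeR adjusted p = 0.552). For Mylip too EGF replicate 5 was highest, and the log2 fold change without it was 0.20 (SE 0.10, edgeR adjusted p = 0.344).

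Abca1, which loads cholesterol onto apolipoprotein A-I, had 43.6, 42.0, 41.4, 40.1 and 24.8 CPM in EGF libraries, against 32.1, 40.3, 31.4, 26.1 and 29.8 CPM in Saline libraries. EGF replicates 1 to 3 lay above all Saline libraries, replicate 4 was just below the highest of them, and replicate 5 lay below all. The log2 fold change was 0.27 (SE 0.17) with all libraries and 0.39 (SE 0.11, 95% interval 0.15 to 0.63) without replicate 5. For Abca1 the edgeR adjusted p was 0.617 with all libraries and 0.172 without replicate 5. Abcg1, which exports cholesterol to high-density lipoprotein, had 78.3 to 95.3 CPM in EGF replicates 1 to 4 and 28.2 CPM in replicate 5, against 66.0 to 99.1 CPM in Saline libraries. Its log2 fold change was -0.09 with that library and 0.12 without it. Nr1h3, the receptor LXR alpha that is abundant in macrophages, had 0 to 5 counts in EGF libraries and 2 to 13 in Saline libraries. Its mean was 0.302 ± 0.215 CPM in EGF libraries and 0.94 ± 0.499 CPM in Saline libraries (SD, n = 5 each), and the groups overlapped. It was under the count filter of the edgeR test, and DESeq2 gave a log2 fold change of -1.61 (adjusted p = 0.526). The monocyte and macrophage markers summed to 72.9 to 112 CPM in EGF libraries and 64.2 to 197 CPM in Saline libraries, with no marker at 0 in all libraries, and their part in Nr1h3 was not tested.

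**Figure D3:**
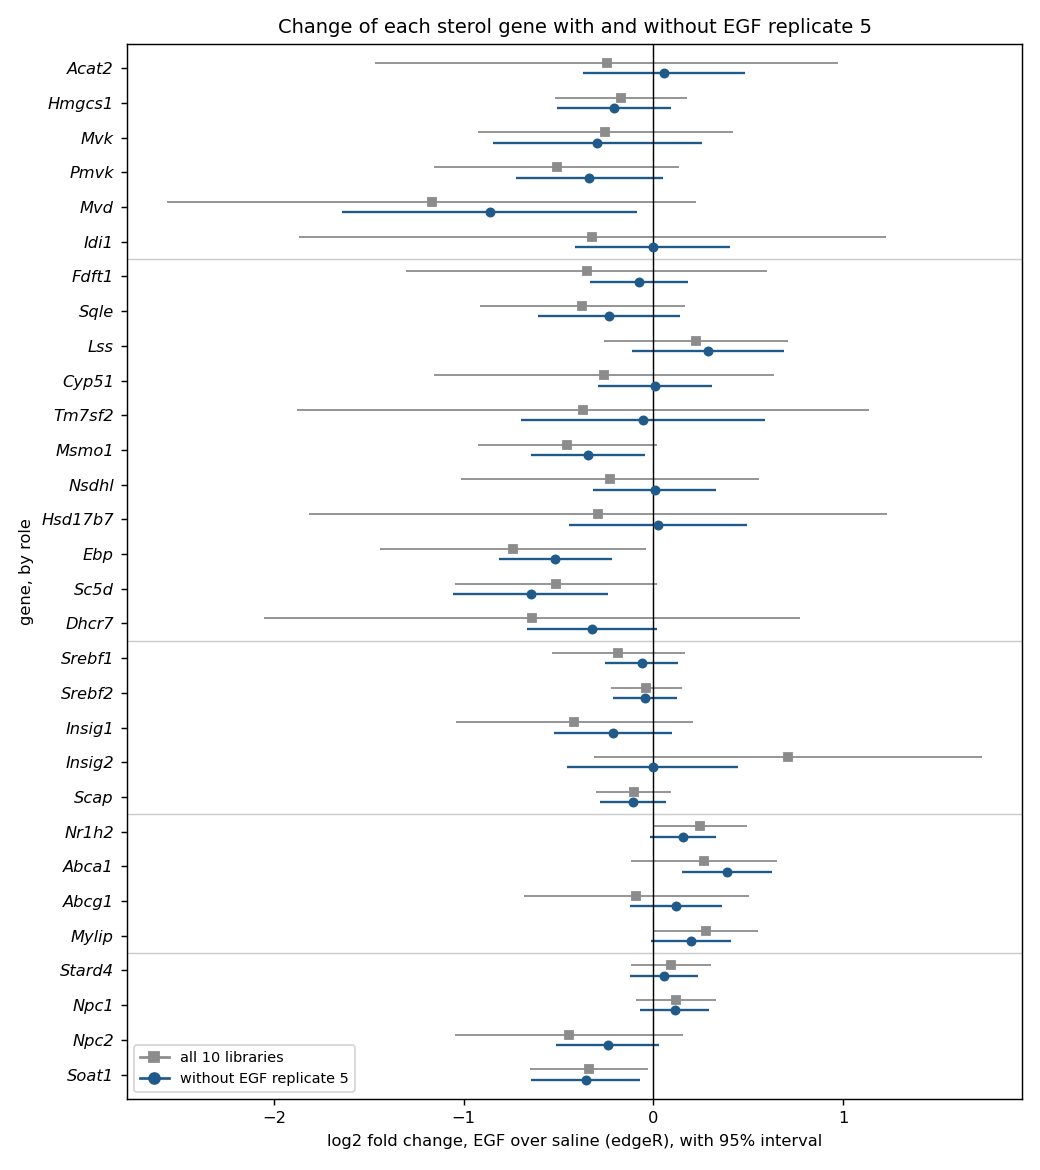
Log2 fold change of EGF over Saline with its 95% interval for the 30 tested genes, with all 10 libraries (squares) and without EGF replicate 5 (circles). Intervals of enzymes such as Dhcr7 and Hsd17b7 narrow without replicate 5, Insig2 moves to -0.005, and Abca1 stands at 0.39.

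Of the 4 transport and storage genes, 2 had a log2 fold change below 0 and 2 above, and none passed the edgeR test. Soat1, which esterifies cholesterol for storage, had 51.4, 42.2, 40.4, 47.7 and 48.2 CPM in EGF libraries, against 46.1, 49.7, 65.8, 73.3 and 56.4 CPM in Saline libraries. Saline replicates 1 and 2 lay within the EGF range and the other three above it. The log2 fold change was -0.34 (SE 0.14) with all libraries and -0.36 (SE 0.13) without replicate 5, with an edgeR adjusted p of 0.552 and 0.228. Npc2, the lysosomal protein that hands cholesterol to NPC1, had 49.4, 60.9, 53.6, 41.8 and 17.1 CPM in EGF libraries, against 46.7, 64.7, 58.1, 64.0 and 70.4 CPM in Saline libraries. EGF replicates 4 and 5 lay below all Saline libraries (log2 fold change -0.45, SE 0.27, and -0.24, SE 0.13, without replicate 5). Npc1, the membrane partner, had 52.8, 45.7, 53.2, 56.3 and 53.2 CPM in EGF libraries, against 47.6, 45.8, 46.5, 53.2 and 47.7 CPM in Saline libraries, and the groups overlapped. Stard4, a cytosolic sterol carrier, averaged 61.1 ± 4.89 CPM in EGF libraries and 57.3 ± 4.54 CPM in Saline libraries (SD, n = 5 each; log2 fold change 0.09, SE 0.10).

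Scaled by exon length, 9 sensing, receptor, efflux and transport genes stood above all enzymes on the mean of both groups. The lowest of them, Insig1 (5.58 CPM per kilobase with EGF and 7.46 with Saline), did not within either group. It lay below Hmgcs1 in EGF libraries and below Ebp in Saline libraries. Srebf2 had the highest level, 27.0 CPM per kilobase in EGF libraries and 27.7 CPM per kilobase in Saline libraries, and Nr1h2 followed with 22.2 CPM per kilobase in EGF libraries and 18.7 in Saline libraries. Among the enzymes Ebp, at 4.86 CPM per kilobase with EGF and 8.12 with Saline, and Hmgcs1, at 6.03 with EGF and 6.79 with Saline, had the highest levels. Mvd (0.473 with EGF and 1.08 with Saline) and Tm7sf2 (0.521 with EGF and 0.676 with Saline) had the lowest levels per kilobase of those tested. Fdps, at 0.0919 CPM per kilobase with EGF and 0.147 with Saline, and Nr1h3, at 0.12 with EGF and 0.374 with Saline, came last of the 32. The lengths take in all annotated exons, so genes with rare long exons are set too low on this scale.

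**Figure D4:**
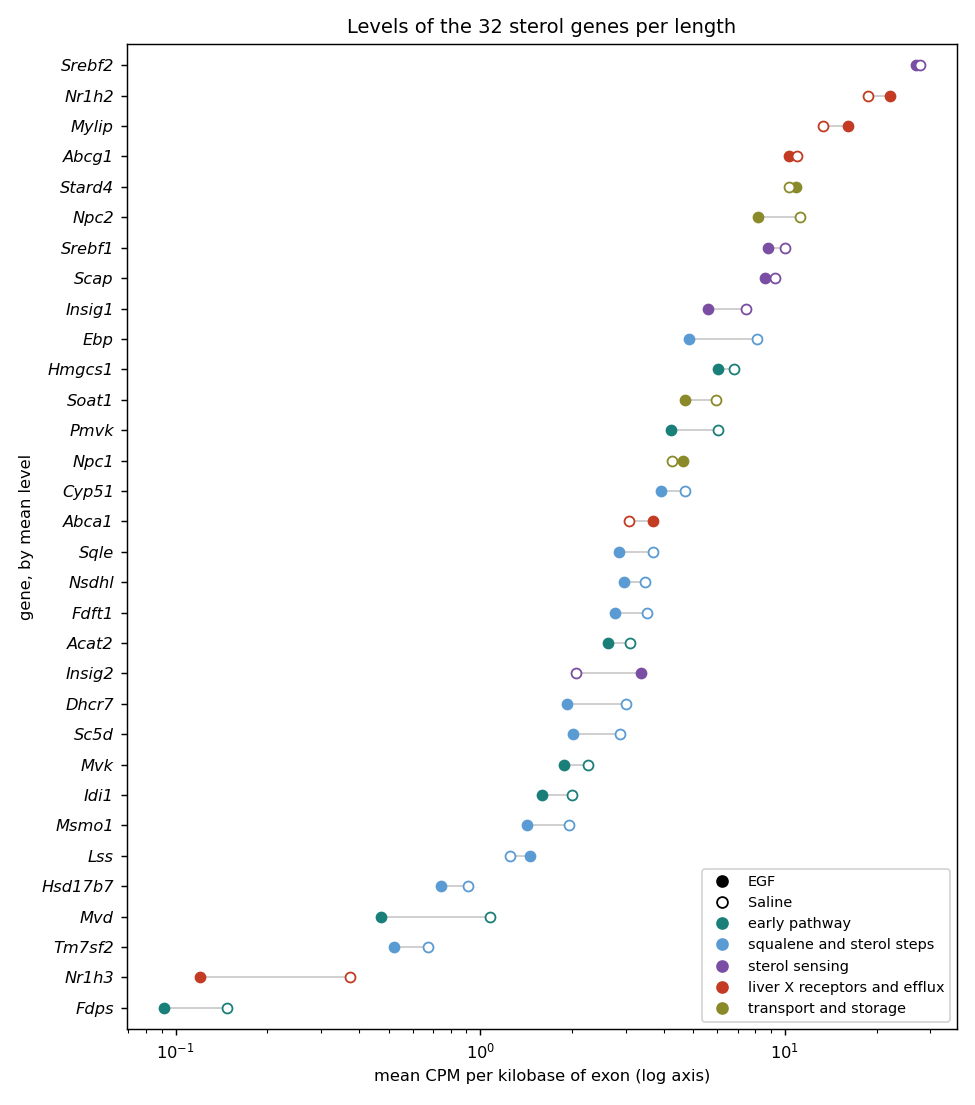
Mean CPM per kilobase of annotated exon for all 32 genes on a log axis, ordered by level, with EGF filled and Saline open and colours for the 5 roles. The sensing and liver X receptor genes Srebf2, Nr1h2 and Mylip lead, and Ebp, at 4.86 with EGF and 8.12 with Saline, leads the enzymes in Saline libraries, while Hmgcs1, at 6.03, leads them in EGF libraries.

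Other genes of sterol and lipid metabolism also gave no call by edgeR, either with all libraries or without EGF replicate 5. Of 8 genes of isoprenoid and late sterol steps, 4 had a log2 fold change below 0 (median -0.023). Of 12 fatty acid synthesis genes tested, 8 lay below 0 (median -0.09), with a summed level of 791 to 952 CPM in EGF libraries and 929 to 1060 CPM in Saline libraries. Scd2, a desaturase, had the smallest p of them, with a log2 fold change of -0.28 (SE 0.10, edgeR adjusted p = 0.552). Of 8 genes of the ubiquitin control of sterol enzymes, 4 lay below 0 (median 0.007).

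Among 15 further genes of sterol transport and storage, 9 lay below 0 and 6 above (median -0.11), and the members with the smallest p went in both directions. Vldlr, a lipoprotein receptor, had 62.2, 34.9, 43.9, 58.5 and 63.0 CPM in EGF libraries, against 106, 98.9, 75.2, 71.5 and 79.7 CPM in Saline libraries. No EGF library reached the lowest Saline library (log2 fold change -0.72, SE 0.18, edgeR adjusted p = 0.552). Of all genes tested, 1.65% showed that pattern. Gramd1b, which carries cholesterol from the plasma membrane to the endoplasmic reticulum, had 68.8, 52.4, 75.6, 84.6 and 64.3 CPM in EGF libraries, against 42.3, 52.3, 49.8, 48.1 and 48.9 CPM in Saline libraries. The EGF libraries of Gramd1b lay above all Saline libraries, as for 1.62% of all genes. Replicate 2 was just above the highest of them (log2 fold change 0.52, SE 0.13, edgeR adjusted p = 0.552). The paralog Gramd1a had a log2 fold change of 0.45 (SE 0.12). Without EGF replicate 5 the log2 fold changes were -0.79 for Vldlr, 0.54 for Gramd1b and 0.38 for Gramd1a.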

How the data were processed

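Per the labels' protocols, the Qiagen RNeasy Micro kit gave the RNA, and a Clontech kit, used after rRNA depletion, gave the libraries. The submitters' processing notes name bcl2fastq 2.17, STAR, GRCm38 and mm10. For the counting tool, strand setting and annotation release nothing is given in the sources used here, so overlapping genes on opposite strands cannot be told apart. The authors deposited counts per gene, whole and not normalized as judged from the values. Positions and exon lengths came from GENCODE M21, as did the names of 27 genes whose symbols differed between files.

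The main test was edgeR 4.0.16 in R 4.3.3: TMM scaling, filterByExpr (minimum count 10) and a quasi-likelihood F test over all 10 libraries, with Benjamini-Hochberg adjustment over 12874 genes. CPM are TMM-scaled. DESeq2 1.42.0, other scalings and filters, and left-out libraries were alternatives. The test was also tried on simulated counts with known changes. With all 10 libraries it recovered 14% of 1.5-fold, 36% of 2-fold and 70% of 4-fold changes. Without EGF replicate 5 it recovered 46%, 82% and 90%. A gene that was not called may therefore still differ by such amounts. The changed genes were drawn at random from all genes tested, so the recovered shares are not those of the sterol genes. Each gene had the same spread in all simulated libraries, so none was set apart as EGF replicate 5 was. All pairs of libraries differed beyond sampling noise, with a chi-square of at least 5.6 per degree of freedom. The genes, lists and motifs were chosen with earlier results of these data known. Values per library are given for the 3 genes of smallest p in each role, and other lists by up to 3 genes of smallest p, of which some are not reported here. The 5 promoters were chosen after values were seen.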

Additional observations from a re-analysis of the deposited data

Results flagged for a closer look

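For 9 genes EGF replicate 5 lay apart from the other 4 EGF libraries by more than Dixon's 95% limit for a group of 5. It was low for Idi1 (0 CPM, next 6.02), Hsd17b7 (0 CPM, next 4.12), Fdft1 (1.68, next 13.7), Cyp51 (3.08, next 18.7), Ebp (3.64, next 12.2), Msmo1 (6.02, next 9.15), Abca1 (24.8, next 40.1) and Abcg1 (28.2, next 78.3), and high for Insig2 (30.1, next 8.73). The same library was low in the summed CPM of all 18 enzymes (92.6, next 176), in that of the squalene and sterol steps (52.4, next 124) and in the number of genes with a count (12731, next 18734). In the Saline group, replicate 5 was high for Srebf1 (64.6 CPM, next 55.8) and replicate 4 for Npc1 (53.2 CPM, next 47.7). Of 82 groups examined 14 lay past the limit, 12 of them through EGF replicate 5. Chance gives about 1 in 20 for a group taken alone. The groups share the same libraries, and the sums share the same genes. They are not independent, so the count of 14 cannot be set against that rate.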

How the results depend on the processing

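The 19 alternatives took in fits by edgeR and by DESeq2. No edgeR fit called any of the 30 tested genes (lowest adjusted p 0.163). DESeq2 without EGF replicate 5 called Ebp (adjusted p = 0.0411) and Sc5d (adjusted p = 0.0499), both lower with EGF. The direction of a gene turned in 26 of 570 comparisons, 25 of them with EGF replicate 5 left out. All genes called, 1 in the full test, were 0 with library size scaling, 27 with DESeq2, 0 with the replicate block, 8 with library size scaling without EGF replicate 5, 310 with DESeq2 without it (a setting added after the data were seen), and 0 to 8 with any 1 library left out. At an unadjusted p under 0.05 the full test had 790 genes higher and 352 lower. The median of the sterol genes was -0.39 with the replicate block, -0.333 to -0.059 with any 1 library left out, -0.012 without EGF replicates 3, 4 and 5, -0.032 with library size scaling without EGF replicate 5 and -0.07 with DESeq2 without it. Same-numbered libraries did not deviate together (correlations -0.0757 to 0.0164), so the numbers were not taken as pairs, and no library correlated best with its own number. With 1 library left out, the log2 fold change ranged from -0.435 to 0.053 for Acat2, -0.399 to 0.008 for Cyp51, -0.346 to 0.006 for Nsdhl, -0.434 to 0.025 for Hsd17b7, -0.005 to 0.903 for Insig2, -0.19 to 0.119 for Abcg1 and -0.077 to 0.01 for Srebf2 (above 0 without Saline replicate 5). Without EGF replicates 3, 4 and 5, genes that turned stood at 0.185 (Acat2), 0.037 (Mvk), 0.065 (Tm7sf2), 0.058 (Nsdhl), 0.057 (Srebf1), 0.031 (Srebf2) and 0.172 (Abcg1). With library size scaling without EGF replicate 5 they stood at 0.076 (Acat2), 0.023 (Idi1), 0.035 (Cyp51), 0.033 (Nsdhl), 0.051 (Hsd17b7) and 0.142 (Abcg1). With DESeq2 without it they stood at 0.051 (Acat2), 0.008 (Cyp51), 0.003 (Nsdhl), 0.023 (Hsd17b7), -0.005 (Insig2) and 0.117 (Abcg1). The cause was not tested. Depth limits genes with few counts, such as Mvd.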
